A study of Mus musculus with 26 samples.

Results

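Arachidonic acid (AA) was compared directly with prostaglandin E2 (PGE2) after 1 day on mouse intestinal organoids, in 3 RNA-seq libraries of each treatment, 6 of the 26 libraries of the study. The members of the comparison were taken by their labels alone. The 3 vehicle libraries of the same day stand beside every gene, so that a change in opposite directions can be told from a weaker change in the same direction. The organoids were grown from crypts of C57BL/6 mice in Matrigel, a basement membrane gel. All groups shared a medium with EGF, Noggin, R-spondin, N-acetylcysteine, B27, N2, the Wnt pathway activator CHIR-99021 and the ROCK inhibitor Y-27632. The AA group (AA_D1) received AA at 25 µM for 1 day, the PGE2 group (PGE2_D1) received PGE2 at 50 nM for 1 day, and the vehicle group (Veh_D1) received vehicle for 1 day. The same 3 treatments for 3 days (Veh_D3, AA_D3 and PGE2_D3, 3 libraries each) served for a comparison with the later day. The treatment protocol names PGE2 while the design text of the series names a dimethyl analogue of it, and the sources used here do not settle which one was added. The doses of the 2 compounds differ, so the values show these treatments side by side and give no comparison at a matched dose.

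AA is a polyunsaturated fatty acid of membrane phospholipids. Cyclooxygenases turn the free acid into prostaglandin H2, and prostaglandin E synthases turn that into PGE2, which acts on EP receptors at the cell surface, in part through cyclic AMP. Free AA also has routes that exogenous PGE2 does not share: fatty acids bind PPAR nuclear receptors, which drive genes of fatty acid oxidation and transport, and polyunsaturated fatty acids lower the maturation of SREBP-1, which drives genes of fatty acid synthesis and desaturation.

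Each library held between 10324861 and 14602531 counted reads: 12894671 to 14110917 with vehicle, 13484015 to 14602531 with AA and 10324861 to 13898180 with PGE2. The share of counts from mitochondrial ribosomal RNA was 9.15% to 10.3% with vehicle, 8.52% to 9.43% with AA and 7.99% to 8.92% with PGE2. A pair of nuclear loci that resemble ribosomal RNA took 7.58% to 8.78%, 8.46% to 10.1% and 8.65% to 12% in the same order, and the part of these shares in the results was not tested. Epithelial identity was checked on 11 markers: none was at 0 in any group, and the adhesion molecule Epcam stood at 566 to 567 CPM (counts scaled to a common library size) with AA, 556 to 567 with PGE2 and 582 to 662 with vehicle. The summed level of those 11 markers was 7310 to 8190 CPM with vehicle, 10900 to 11300 with AA and 13500 to 14200 with PGE2, and the keratin Krt8 alone gave 2050 to 2370, 3500 to 3610 and 4470 to 4670. Markers of other cells were near 0: the sums were 1.72 to 3.66 CPM over 13 fibroblast and smooth muscle markers, 2.19 to 6.05 over 14 immune markers and 1.67 to 3.77 over 10 endothelial and neural markers, over all 9 libraries. Cd3e of T cells and Kdr of endothelium were at 0 in all 9. The immune sums were 4.68 to 5.18 with AA and 4.77 to 6.05 with PGE2, against 2.19 to 2.64 with vehicle. Of the tested members, 0 of 3 immune, 0 of 2 fibroblast and 0 of 4 endothelial and neural markers were called between AA and PGE2 by edgeR, with 0, 1 and 0 at an unadjusted p below 0.05, and DESeq2 and limma voom also called 0 of each. The labels do not say whether the 3 libraries of a group came from separate cultures, so p-values measure the spread between these libraries, which may be technical. These are bulk samples, in which fewer cells of a type and less RNA per cell cannot be told apart.

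At day 1 the AA organoids differed from the PGE2 organoids in 4119 of 14850 tested genes (27.7%), at an adjusted p below 0.05 (called, from here on). AA was higher than PGE2 in 1671 of them (11.3%) and lower in 2448 (16.5%). With library totals alone in place of the trimmed normalization, the split turned to 2570 higher and 1746 lower, so the balance of directions rests on the scaling. In 4052 of the 4119 genes all 3 AA libraries lay beyond all 3 PGE2 libraries. The call itself favours such genes, so this count adds no separate support. A difference of at least 2-fold was found in 468 genes (3.15%), 237 higher and 231 lower with AA, and at least 4-fold in 64, 41 higher and 23 lower. The median over all tested genes was -0.01 on the log2 scale. Against vehicle, 6197 genes were called with AA (41.7%) and 8306 with PGE2 (55.9%). Both of those comparisons use the same 3 vehicle libraries, so they are not independent of each other, and each gene's values in both are given side by side below.

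The position of each gene relative to vehicle sorted the 4119 genes into 6 classes. The largest class, 2679 genes (18% of those tested), had moved from vehicle in the same direction under both compounds and less far with AA. Another 1041 (7.01%) were called against vehicle with PGE2 alone. AA alone was called against vehicle in 147 (0.99%), the AA change was the larger one in 41 (0.276%), the 2 compounds moved the gene in opposite directions in 44 (0.296%), and neither was called in 167 (1.12%). In the scatter of the vehicle contrasts, the class rule itself places the first class between the horizontal axis and the diagonal. The median size of the difference between AA and PGE2 was 0.75 on the log2 scale in the opposite class, 0.38 in the class with the weaker AA change, and between 0.29 and 0.33 in the other 4. In the opposite class the difference spans called changes on both sides of vehicle, so its larger median follows in part from the class rule.

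**Figure D1:**
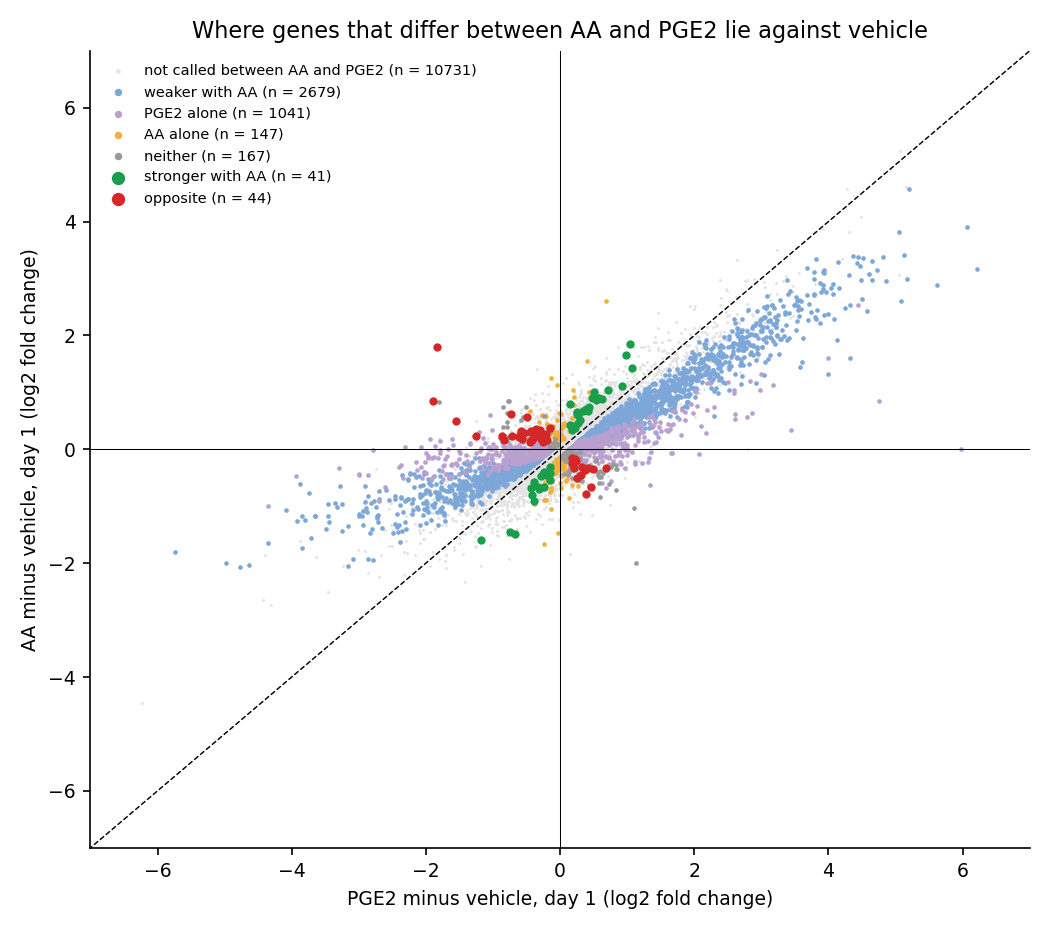
Log2 fold change against vehicle at day 1 with PGE2 (horizontal) and AA (vertical), 1 point per tested gene, coloured by class, with 1 gene outside the axes; the dashed line marks equal changes. By the class rules, the 2679 genes of the class weaker with AA lie on the PGE2 side of the diagonal. The 44 opposite genes lie upper left and lower right.

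In the 44 opposite genes the 2 compounds moved expression to opposite sides of vehicle. AA raised and PGE2 lowered 30 of them, and AA lowered and PGE2 raised 14. The first group held genes of fatty acid oxidation and transport, and of detoxification and retinoid metabolism in enterocytes. The second held genes of the secretory lineage. Against the gene lists, 6 of the 30 belonged to fatty acid oxidation and 6 to xenobiotic metabolism, and 3 of the 14 to the goblet cell list and 2 to the Paneth cell list. In 40 of the 44 the 3 groups of libraries did not overlap, the exceptions being Fmo4, Atoh1, Sgsm1 and Naglu. The same held in 2624 of the 2679 genes weaker with AA and in 38 of the 41 stronger with AA. AA and PGE2 differed at least 2-fold in 11 of the 44 and in 270 of the 2679.

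Fabp1, the liver-type fatty acid binding protein that carries long-chain fatty acids inside enterocytes, was among the widest apart. It was at 65.6, 66.6 and 70.0 CPM with vehicle, 136, 113 and 113 with AA and 17.4, 17.0 and 19.7 with PGE2. The 3 groups did not overlap, with AA highest and PGE2 lowest, and AA exceeded PGE2 6.67-fold (2.74 ± 0.10, adjusted p = 2.22e-15). Against vehicle it stood at 0.84 with AA and -1.90 with PGE2, both on the log2 scale.

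The promoter of Fabp1 is shown because it was the one among these 30 genes with a PPAR-type element in the bases before its start. The motif was 2 copies of AGGNCA separated by 1 base, searched on both strands in the 250 bases upstream of the start in the RefSeq promoters (GRCm38.p6). It occurred in 34 of the 10173 tested genes with a promoter in the table (0.334%), and in 1 of the 27 opposite genes higher with AA that had one. In the fatty acid oxidation list 0 of 23 held it. In the list of PPAR-responsive lipid handling genes 1 of 19 did, Fabp1 itself. Among all genes at least 2-fold higher with AA, 4 of 177 did (2.26%). The capitals mark the match, which lies on the minus strand and begins 67 bases before the start; the stretch is chr6:71199787-71199849, plus strand.
Fabp1: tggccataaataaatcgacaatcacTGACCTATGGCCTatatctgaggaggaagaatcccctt
The match describes these letters and shows no binding.

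6 further genes of mitochondrial fatty acid oxidation took the same course at smaller size. Slc25a20, the carrier that brings acylcarnitines into the matrix, was at 19.5, 20.1 and 24.0 CPM with vehicle, 27.7, 24.8 and 28.9 with AA and 17.2, 15.6 and 16.2 with PGE2 (0.72 ± 0.09, adjusted p = 6.25e-08). Hadha and Hadhb, the 2 subunits of the trifunctional protein that carries out the last steps of each cycle on long chains, differed by 0.53 and 0.59. In both genes the AA libraries were the highest of the 9 and the PGE2 libraries the lowest. Acadvl, which starts the cycle on very long chains, differed by 0.47, Cpt2, which re-forms acyl-CoA inside the mitochondrion, by 0.38, and Eci2, an isomerase for unsaturated chains, by 0.60. Gpd1, the cytosolic glycerol-3-phosphate dehydrogenase, differed by 0.35, with 180, 189 and 178 CPM with vehicle, 210, 201 and 200 with AA and 155, 164 and 160 with PGE2.

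Enterocyte enzymes and transport proteins made up most of the rest. Aadac, a lipid and drug esterase of the endoplasmic reticulum, stood at 72.4, 75.2 and 75.5 CPM with vehicle, 87.2, 88.1 and 87.3 with AA and 30.6, 32.9 and 29.9 with PGE2. The fall with PGE2 (-1.26) was larger than the rise with AA (0.24), and AA and PGE2 differed by 1.50 ± 0.05 (adjusted p = 1.63e-19). Aldh1a1, which makes retinoic acid from retinal, moved about as far in each direction: 108, 104 and 112 CPM with vehicle, 165, 168 and 166 with AA and 66.0, 63.7 and 65.0 with PGE2 (1.36 ± 0.06, adjusted p = 4.72e-18). Other genes that handle retinoids or alcohols were in this group, with differences of 1.09 for the alcohol dehydrogenase Adh1 and 0.94 for Rbp2, the retinol carrier of the enterocyte. Among detoxification genes the differences were 0.86 for Cbr3, 0.75 for the sulfotransferase Sult1b1, 0.74 and 0.50 for the cytochromes Cyp2c66 and Cyp2c29, 0.66 for the efflux pump Abcb1a, 0.63 for Fmo4, 0.59 for Ugdh, which makes the donor for glucuronidation, and 0.58 for Akr1c19. Reads of the Cyp2c and Akr1c families can be divided among near-identical copies by the counting, so these members are uncertain one by one.

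The brush border and lipid export were represented too. Sis, the sucrase-isomaltase that splits dietary sugars, was at 334, 332 and 305 CPM with vehicle, 381, 350 and 358 with AA and 175, 182 and 187 with PGE2 (1.00 ± 0.06, adjusted p = 8.94e-15). The peptidases Mme and Enpep differed by 0.84 and 0.82. Mttp, which loads lipid onto apolipoprotein B for chylomicrons, was at 341, 344 and 334 CPM with vehicle, 437, 424 and 414 with AA and 251, 253 and 248 with PGE2 (0.76 ± 0.06, adjusted p = 3.19e-10). Of 2 transcription factors, Hnf4g, an enterocyte nuclear receptor, differed by 0.90 ± 0.07 and Tcf23 by 1.07 ± 0.09. Reg3g, a lectin that kills Gram-positive bacteria, was low throughout, at 3.86, 3.07 and 4.30 CPM with vehicle, 5.59, 4.89 and 5.32 with AA and 0.915, 1.46 and 1.50 with PGE2 (2.04 ± 0.22, adjusted p = 1.18e-08). The remaining members higher with AA were Tmem236 (0.52) and the sialyltransferase St3gal4 (0.49).

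In the reverse direction, the genes that AA lowered and PGE2 raised included some regulators and products of secretory cells. Atoh1, the transcription factor that commits progenitors to the secretory lineage, was at 6.29, 7.07 and 6.41 CPM with vehicle, 4.21, 3.46 and 3.81 with AA and 9.99, 9.28 and 6.44 with PGE2. The AA libraries lay below all others, while 1 PGE2 library lay within the vehicle range, and AA and PGE2 differed by -1.16 ± 0.16 (adjusted p = 9.65e-07). Spdef, which acts after Atoh1 in goblet and Paneth cell maturation, was at 7.57, 7.61 and 7.50 CPM with vehicle, 6.15, 5.12 and 6.76 with AA and 13.8, 9.91 and 12.3 with PGE2 (-1.01 ± 0.12, adjusted p = 1.1e-07). Agr2, the disulfide isomerase needed to fold mucin, was at 41.6, 40.2 and 44.5 CPM with vehicle, 30.8, 28.1 and 30.4 with AA and 51.7, 49.1 and 49.9 with PGE2 (-0.76 ± 0.10, adjusted p = 7.33e-06). For Spdef and Agr2 the 3 groups did not overlap.

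The other 11 of the 14 spanned secretion, lipid binding and metabolism. Spink4, a secreted protease inhibitor of goblet and Paneth cells, differed by -0.73 ± 0.10, and Fut2, the fucosyltransferase that decorates mucins, by -1.12 ± 0.17. The Paneth cell defensin Defa24 differed by -0.75 ± 0.12, and reads of the defensin family can be divided among near-identical copies. Fabp5, the epidermal-type fatty acid binding protein, ran against Fabp1: 35.6, 34.7 and 37.5 CPM with vehicle, 27.0, 26.6 and 25.7 with AA and 45.2, 44.8 and 44.2 with PGE2 (-0.76 ± 0.08, adjusted p = 5.2e-08). Degs1, which makes ceramide by desaturating dihydroceramide, differed by -0.44 and the proline-pathway enzyme Aldh4a1 by -0.84. Naglu, a lysosomal enzyme, differed by -0.64, Sgsm1 by -0.53, Trim44 by -0.42, Tspan12 by -0.39 and the phosphoinositide kinase Pip4k2b by -0.33.

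**Figure D2:**
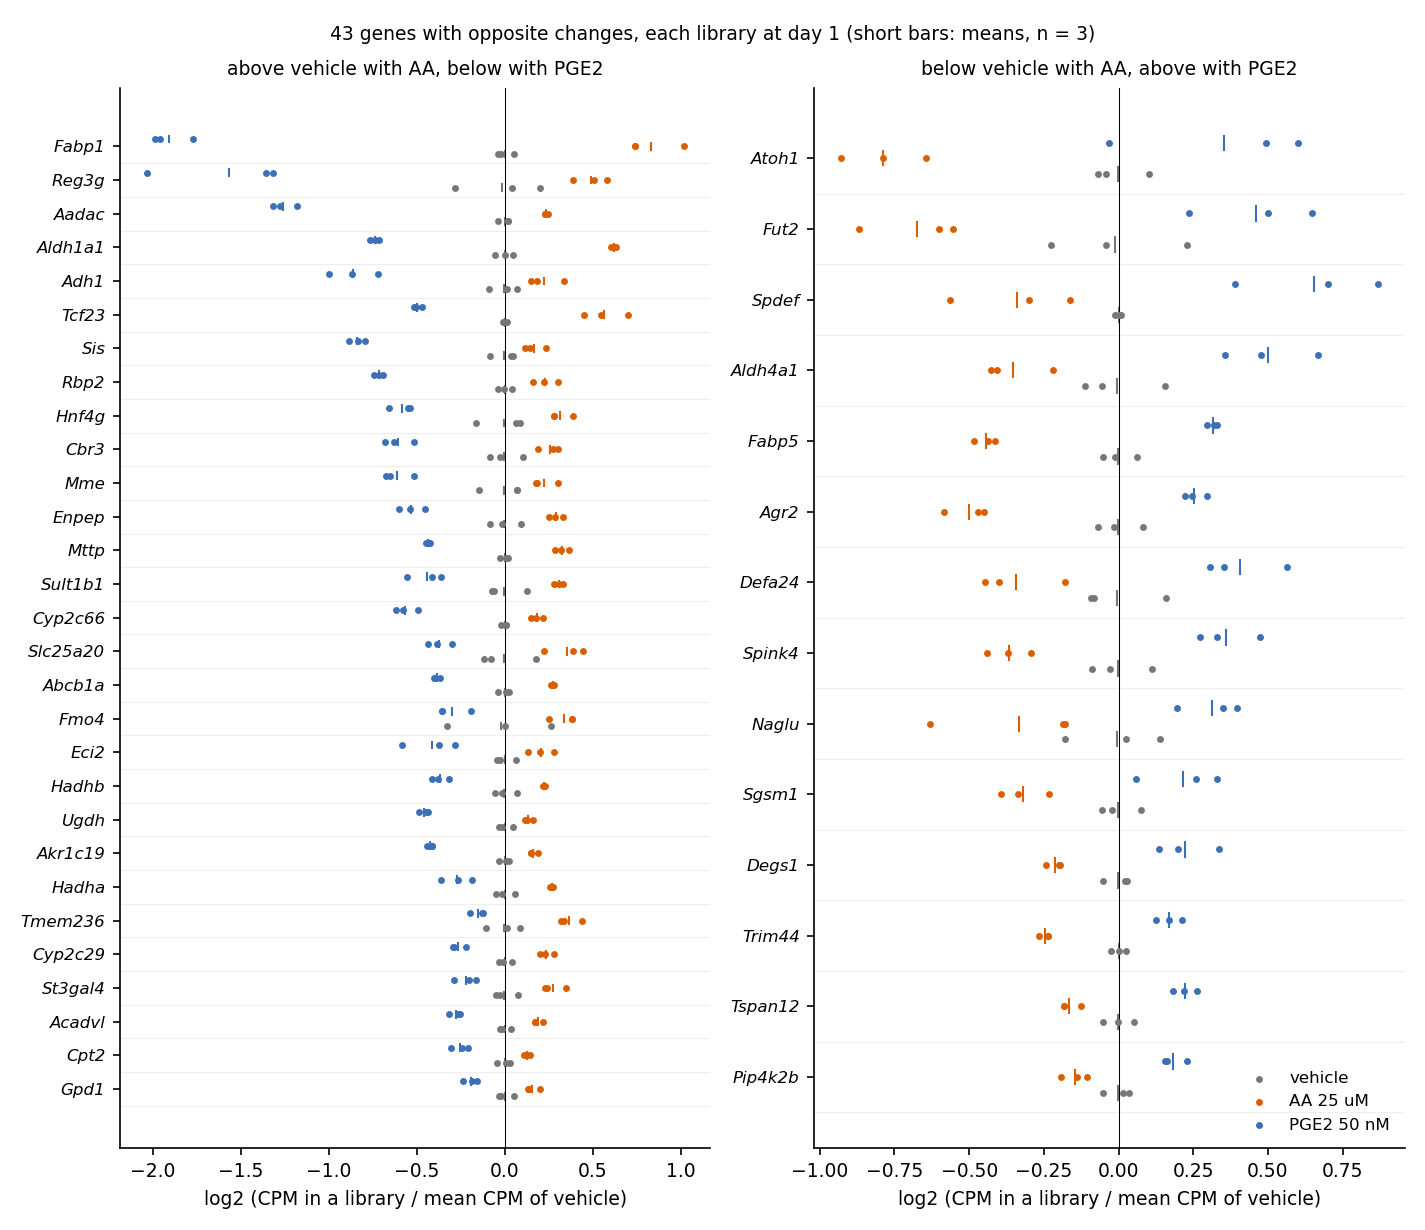
Each library's CPM at day 1 divided by the vehicle mean, on a log2 scale, for 43 opposite genes, with 1 point per library (n = 3 per group) and short bars at the group means. AA means lie right of vehicle and PGE2 means left of it in the left panel, with Fabp1 far apart, and the order is turned in the right panel; single libraries of Fmo4, Atoh1, Sgsm1 and Naglu overlap those of vehicle.

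How firmly a gene belonged to the opposite class differed. Across 18 alternative settings, among them each of the 9 day 1 libraries left out in turn, 20 of the 30 genes higher with AA and 3 of the 14 lower with AA stayed in the class every time. The 20 included Fabp1, Aldh1a1, Aadac, Hadha, Hadhb, Acadvl, Slc25a20 and Mttp, and the 3 were Degs1, Fabp5 and Spink4. Of the other secretory genes, Fut2 stayed in 16 settings, Agr2 in 13, Atoh1 in 12, Defa24 in 10 and Spdef in 6. Fewer than 9 of the 18 settings kept Cpt2, Tmem236, Spdef, Tspan12, Pip4k2b and Naglu, 6 of the 44. For these 6 the direct difference between AA and PGE2 is the firmer statement.

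The fatty acid oxidation list as a whole leaned to AA. Of its 27 members, all tested, 19 were higher with AA than with PGE2, 0 were lower and 8 were not called, and the median difference was 0.47 against -0.01 over all genes. The median was -0.03 for AA against vehicle and -0.36 for PGE2 against vehicle. By class, 6 were opposite, 5 weaker with AA, 2 stronger with AA, 5 called with PGE2 alone and 1 with AA alone. Cpt1a, the gate for fatty acid entry into mitochondria, was at 85.6, 88.0 and 83.2 CPM with vehicle, 141, 150 and 152 with AA and 96.5, 97.3 and 91.7 with PGE2. Both compounds raised it and the AA libraries were the highest (0.64 ± 0.06, adjusted p = 2.59e-10). Acadl, which starts the cycle on long chains, was at 92.6, 90.2 and 97.2 CPM with vehicle, 134, 134 and 133 with AA and 92.6, 93.3 and 84.7 with PGE2, and only the AA change was called against vehicle (0.52, against -0.05 for PGE2). Hadh, the dehydrogenase for shorter chains, fell with both and less with AA: 169, 171 and 191 CPM with vehicle, 115, 105 and 108 with AA and 62.5, 64.1 and 64.2 with PGE2 (0.78 ± 0.06, adjusted p = 2.18e-12). Abcd3, a peroxisomal fatty acid importer, rose with both and more with AA (0.16), and so did Crot, a peroxisomal carnitine acyltransferase outside the list (0.41).

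The list of PPAR-responsive lipid handling genes was divided. Of 31 listed genes 23 were tested, and 11 were higher with AA, 3 lower and 9 not called (median 0.21). Beside Fabp1, Slc27a2, an acyl-CoA synthetase for very long chains, differed by 1.87 ± 0.10 and the acyl-CoA thioesterase Acot1 by 1.75 ± 0.09, and both fell with both compounds and less with AA. Acot1 was at 40.8, 37.2 and 42.1 CPM with vehicle, 30.5, 28.6 and 29.9 with AA and 9.07, 9.59 and 7.95 with PGE2. Pdk4, a kinase that spares glucose when fat is burned, was listed near 0 in vehicle (0, 0.231 and 0.312 CPM) and PGE2 (0.305, 0.417 and 0.167) and at 1.24, 1.05 and 1.08 CPM with AA. The genes of the PPAR receptors themselves all moved less far with AA than with PGE2, Ppara lying 0.42 higher and Ppard and Pparg 0.57 and 0.28 lower. Creb3l3, a membrane-bound transcription factor of lipid metabolism, rose with AA alone: 18.4, 16.5 and 15.1 CPM with vehicle, 34.4, 31.5 and 28.8 with AA and 18.5, 21.9 and 17.8 with PGE2 (0.71 ± 0.10, adjusted p = 8.77e-07). Plin2, which coats lipid droplets, rose with both, to 63.6, 62.7 and 64.2 CPM with AA and 57.8, 58.2 and 58.1 with PGE2 from 30.5, 27.1 and 30.9 with vehicle. Its difference of 0.13 was not called (95% interval 0.01 to 0.25). Angptl4, an inhibitor of lipoprotein lipase, also rose with both, and less with AA (-0.23 ± 0.07, adjusted p = 0.0152). The calls of Angptl4 and Ppara were each lost in 5 alternative settings.

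The 41 genes with the larger AA change, together with those called with AA alone, held enzymes of fatty acid synthesis and desaturation. Scd2, a stearoyl-CoA desaturase that makes monounsaturated fatty acids, was at 1613, 1618 and 1556 CPM with vehicle, 607, 578 and 558 with AA and 930, 946 and 965 with PGE2. Both compounds lowered it, the 3 groups did not overlap, and AA lay 0.70 ± 0.07 below PGE2 (adjusted p = 1.56e-08). Scd1 fell in the same order: 315, 332 and 287 CPM with vehicle, 107, 101 and 101 with AA and 134, 141 and 139 with PGE2 (-0.42 ± 0.09, adjusted p = 0.00101). Srebf1, which encodes SREBP-1 itself, was at 139, 136 and 134 CPM with vehicle, 95.1, 93.9 and 92.3 with AA and 122, 122 and 124 with PGE2 (-0.39 ± 0.05, adjusted p = 6.75e-08). Acly, which supplies cytosolic acetyl-CoA, and Acaca, which carboxylates it, each lay 0.18 lower with AA, Lpin1, a phosphatidate phosphatase, 0.52 lower, and Acsl4, the acyl-CoA synthetase that prefers AA, 0.24 lower. The call of Acaca was lost in 9 alternative settings. Elovl5, the elongase of polyunsaturated chains, was called against vehicle with AA alone, at 94.1, 91.8 and 97.5 CPM with AA, 118, 108 and 108 with PGE2 and 120, 115 and 122 with vehicle (-0.24 ± 0.05, adjusted p = 0.000399).

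The front-end desaturases went the other way. Fads1, the delta-5 desaturase that makes AA, was at 193, 197 and 203 CPM with vehicle, 62.6, 64.2 and 64.3 with AA and 38.6, 40.1 and 35.1 with PGE2. It fell with both compounds and further with PGE2 (0.75 ± 0.06, adjusted p = 1.22e-10). Fads2, the delta-6 desaturase, followed at 0.46 ± 0.05, Gpam, which adds the first fatty acid to glycerol-3-phosphate, at 0.57 ± 0.06, and the acetate-activating enzyme Acss2 at 0.39 ± 0.07. The lists were mixed. Of 17 tested desaturation and elongation genes (20 listed) 5 were higher with AA, 4 lower and 8 not called (median -0.04). Of 15 tested lipogenesis genes (17 listed) 2 were higher, 6 lower and 7 not called (median -0.13). Fasn, the fatty acid synthase, was not called between the compounds, at 741, 710 and 727 CPM with AA and 801, 783 and 802 with PGE2, a difference of -0.13 (95% interval -0.34 to 0.08). Among 26 cholesterol genes 21 were not called, 2 were higher with AA and 3 lower (median -0.04). The medians of that list against vehicle were -0.22 with AA and -0.20 with PGE2. Of its called members, Tm7sf2, a sterol reductase, lay 0.51 higher with AA. No tested gene of the desaturation list held an SREBP-type element (TCACNCCAC, both strands) in the 250 bases upstream, among the 14 with a promoter in the table. In the lipogenesis list 1 of 15 did, in the cholesterol list 1 of 18, and over all tested genes with a promoter 1.21% did.

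**Figure D3:**
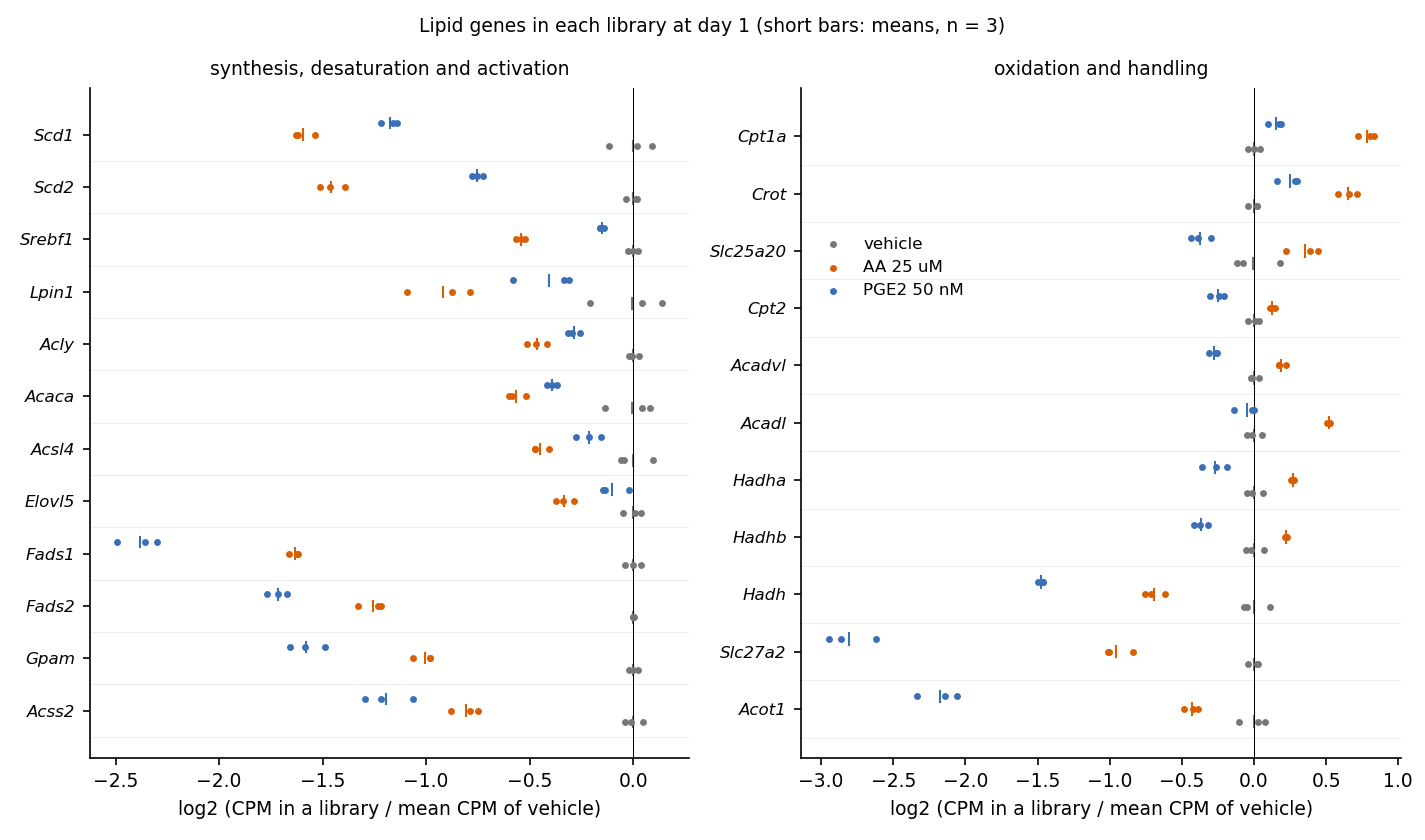
Each library's CPM at day 1 divided by the vehicle mean, on a log2 scale, for 23 genes of fatty acid synthesis (left) and of oxidation and handling (right), with 1 point per library (n = 3 per group) and short bars at the group means. Scd1, Scd2 and Srebf1 lie lowest with AA, Fads1, Fads2 and Gpam lie lowest with PGE2, and Cpt1a lies highest with AA.

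Among genes raised further by AA, Nos2, the inducible nitric oxide synthase, was at 9.64, 9.38 and 13.4 CPM with vehicle, 35.7, 33.2 and 32.7 with AA and 22.4, 21.5 and 19.6 with PGE2 (0.68 ± 0.09, adjusted p = 7.1e-07). The vasoactive peptide gene Edn3 was at 2.29, 3.23 and 2.27 CPM with vehicle, 7.74 to 10.2 with AA and 6.56, 4.90 and 4.43 with PGE2 (0.80 ± 0.17, adjusted p = 0.000433). The AA libraries were the highest in both genes. Fgf15, the hormone that reports bile acid uptake to the liver, differed by 0.50 ± 0.18 at 3.84 to 5.11 CPM with AA and 2.93 to 3.44 with PGE2. Alpi, the brush border alkaline phosphatase, differed by 0.31 ± 0.07, and Ccdc141 by 0.42 ± 0.08. Igsf23, an immunoglobulin superfamily member, was at 68.7, 62.1 and 67.4 CPM with vehicle, 105, 108 and 102 with AA and 79.1, 87.0 and 85.5 with PGE2 (0.33 ± 0.05, adjusted p = 5.44e-06). Its promoter is printed since it was the 1 among 20 genes of this set with a promoter in the table that held the PPAR-type element. The match, in capitals, begins 72 bases before the start, on the minus strand relative to the gene; the stretch is chr7:19950778-19950840, minus strand, GRCm38.p6.
Igsf23: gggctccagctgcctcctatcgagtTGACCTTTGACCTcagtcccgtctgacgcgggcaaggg
Of the genes lowered further by AA and not named above, Mmp7, the protease that activates Paneth cell defensins, differed by -0.43 ± 0.10 and the lipoprotein receptor Vldlr by -0.39 ± 0.14. The calls of Fgf15 and Vldlr were each lost in 7 alternative settings.

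Secretory cell products were lower with AA than with PGE2 beyond the opposite class. Of 13 tested goblet cell genes (16 listed) 11 were lower with AA, 0 higher and 2 not called, with a median of -0.76. The medians against vehicle were -0.41 with AA and 0.26 with PGE2. Tff3, the trefoil peptide that goblet cells secrete with mucin, was at 144, 146 and 170 CPM with vehicle, 82.9, 86.9 and 83.0 with AA and 179, 157 and 166 with PGE2. The AA libraries lay far below the others while the PGE2 and vehicle libraries overlapped, and AA and PGE2 differed by -0.99 ± 0.09 (adjusted p = 2.09e-07). Fcgbp, a large mucus protein, was at 489, 499 and 444 CPM with vehicle, 332, 301 and 295 with AA and 551, 530 and 533 with PGE2 (-0.80 ± 0.10, adjusted p = 6.98e-06). Creb3l1 and, outside the list, Creb3l4, membrane-bound factors of the secretory pathway, were also called against vehicle with AA alone, and lay 0.69 and 0.92 lower with AA than with PGE2. The gel-forming mucin Muc2 and the secreted protein Clca1 rose with both and less with AA. Muc2 was at 8.14, 7.61 and 10.2 CPM with vehicle, 21.7, 20.5 and 22.2 with AA and 53.8, 36.5 and 35.0 with PGE2 (-0.97 ± 0.19, adjusted p = 0.0018).

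Paneth cell genes shared the direction. Of 16 tested (17 listed) 11 were lower with AA, 0 higher and 5 not called (median -0.77; -0.37 with AA and 0.47 with PGE2 against vehicle). Lyz1, the Paneth cell lysozyme, was at 248, 242 and 287 CPM with vehicle, 176, 171 and 169 with AA and 284, 239 and 255 with PGE2, so that the AA libraries stood alone below the rest (-0.60 ± 0.08, adjusted p = 2.38e-06). The defensin Defa30 showed the other pattern, with a rise called with PGE2 alone, to 48.3, 42.6 and 39.4 CPM from 22.5, 21.4 and 25.1, and 21.6, 20.9 and 20.8 with AA (-1.05 ± 0.09, adjusted p = 1.6e-09). Of 22 tested enteroendocrine genes (24 listed) 6 were lower with AA, 1 higher and 15 not called (median -0.29). That share of calls is near the 27.7% over all tested genes. Reg4 lay 0.97 lower and the granin Chgb 0.52 lower with AA, both having risen with each compound. Of 4 tested tuft cell genes (14 listed) 1, Avil, was lower with AA (-1.34 ± 0.14).

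Of the 8 genes with the largest PGE2 excess once low genes (day 1 mean log2 CPM under 1) and predicted genes were set aside, 6 were raised by both compounds and 2, described further on, by PGE2 alone. Mucl3, a mucin-like gene, was at 0.571, 0.615 and 0.547 CPM with vehicle, 5.59, 4.44 and 5.68 with AA and 43.8, 43.5 and 43.0 with PGE2. The groups did not overlap, and PGE2 exceeded AA 8.26-fold (-3.04 ± 0.10, adjusted p = 4.27e-20). Il33, an alarmin cytokine of the nucleus, was at 2.14, 3.00 and 3.83 CPM with vehicle, 17.8, 17.8 and 18.6 with AA and 101, 98.7 and 103 with PGE2 (-2.48 ± 0.08, adjusted p = 7.81e-21). The angiopoietin receptor gene Tek (-2.67 ± 0.16), the thyroid and kidney factor Pax8 (-2.21 ± 0.14), the kidney cadherin Cdh16 (-2.18 ± 0.12) and the raft protein Mal (-1.90 ± 0.17) kept the same order, from levels under 1 CPM with vehicle. Tek and Pax8 are known from other organs, and the endothelial markers were near 0 in these libraries.

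Most genes of the fetal-like, regenerative epithelium rose with both compounds and less with AA. Of 19 tested (21 listed) 16 were lower with AA than with PGE2, 0 higher and 3 not called, with a median of -0.75 between them and 1.84 and 2.35 against vehicle with AA and PGE2. By class, 14 of the 16 were weaker with AA; the other 2, Fabp5 (-0.44) and Ly6e (-0.23), were called lower with AA than with vehicle. Msln, the surface protein mesothelin, was at 88.3, 85.4 and 92.4 CPM with vehicle, 437, 472 and 470 with AA and 921, 877 and 909 with PGE2 (-0.97 ± 0.05, adjusted p = 6.47e-16). The complement regulator Cd55 differed by -1.12 ± 0.05 and the membrane-binding Anxa2 by -0.75 ± 0.06. The revival stem cell marker Clu rose from 51.6, 46.6 and 54.6 CPM to 194, 185 and 179 with AA and 303, 307 and 308 with PGE2 (-0.72 ± 0.08). Ly6a, the fetal epithelial marker Sca-1, differed by -0.57 ± 0.07. Among YAP/TEAD targets 13 of 18 tested (20 listed) were lower with AA, 1 higher and 4 not called (median -0.63). Ccn2, a secreted matricellular target, was at 6.64, 6.38 and 4.53 CPM with vehicle, 22.2, 27.9 and 24.5 with AA and 49.0, 48.4 and 45.4 with PGE2 (-0.94 ± 0.08, adjusted p = 4.93e-11). Amotl1 differed by -0.86, Myof by -0.82 and Arhgef17 by -1.27.

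Most called cyclic AMP and EGF receptor genes showed the same grading. By class, 8 cyclic AMP genes were weaker with AA and 5 were called against vehicle with PGE2 alone, and in the EGF list 11 and 1. Of 22 tested early response genes of cyclic AMP and CREB (23 listed) 12 were lower with AA, 1 higher and 9 not called (median -0.47; 0.71 and 1.00 against vehicle). The nuclear receptor gene Nr4a1 was at 5.21, 6.30 and 4.76 CPM with vehicle, 11.8, 14.9 and 14.3 with AA and 34.2, 32.7 and 32.1 with PGE2 (-1.27 ± 0.08, adjusted p = 2.93e-13). Dusp1, a phosphatase that switches off MAP kinases, was at 2.00, 1.46 and 2.34 CPM with vehicle, 8.77, 11.1 and 9.86 with AA and 29.3, 31.3 and 28.7 with PGE2 (-1.58 ± 0.11, adjusted p = 8.3e-13). Fos and Fosl2, subunits of AP-1, differed by -0.73 and -0.49. The phosphodiesterase gene Pde4d, whose product degrades cyclic AMP, was at 20.9, 24.1 and 22.9 CPM with AA and 31.4, 27.7 and 30.9 with PGE2, and that difference was not called (-0.42, 95% interval -0.77 to -0.06, adjusted p = 0.0816). Of the other phosphodiesterase genes of the list, Pde4b (-1.62) and Pde10a (-3.91) were called lower with AA and Pde3b (0.02) was not called. Against vehicle, Pde4b and Pde10a were called with PGE2 alone. Both fell short of the rule for the largest differences (mean log2 CPM of at least 1, no overlap), so these sizes are uncertain. Of 19 tested EGF family and feedback genes (21 listed) 11 were lower with AA, 1 higher and 7 not called (median -0.30). The feedback phosphatase Dusp6 differed by -0.99, the receptor gene Egfr by -0.50, and the ligands Tgfa, Ereg and Areg by -0.49, -0.48 and -0.30.

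Mucl3 and Dusp1 were 2 of the 4 genes, of 162 at least 2-fold lower with AA that had a promoter in the table, with the full cyclic AMP response element TGACGTCA in the 250 bases upstream (2.47%, against 313 of 10173 or 3.08% over all tested genes). The other 2 were Kif5c, whose call was lost in 13 alternative settings (adjusted p = 0.046 here), and Tmc7. The promoters of the first pair are printed because Mucl3 led the 8 genes with the largest PGE2 excess, low genes set aside, and Dusp1 is in the early response list. The matches, in capitals, begin 47 and 143 bases before the start, at chr17:35643710-35643767 and chr17:26508583-26508640, both minus strand.
Mucl3: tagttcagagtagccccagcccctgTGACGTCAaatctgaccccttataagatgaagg
Dusp1: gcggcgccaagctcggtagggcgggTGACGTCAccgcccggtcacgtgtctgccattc
The share of this element among the genes lower with AA was near that of all tested genes.

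Lists of the basement membrane and of other epithelia held called genes lower with AA than with PGE2 and none higher. Of 23 tested laminin, collagen IV and integrin genes (27 listed) 18 were lower with AA than PGE2, 0 higher and 5 not called (median -0.44), and 17 of the 18 were weaker with AA. Col4a1, a collagen IV chain, was at 15.3, 17.0 and 15.4 CPM with vehicle, 108, 104 and 101 with AA and 220, 216 and 218 with PGE2 (-1.06 ± 0.05, adjusted p = 1.57e-16). Its partner Col4a2 differed by -1.11, and the laminin chain Lama3 by -1.46. Of 21 tested genes of stratified epithelium (30 listed) 14 were lower, 0 higher and 7 not called (median -0.49). Tgm1, which cross-links the cornified envelope, was at 5.29, 4.92 and 6.09 CPM with vehicle, 39.0, 44.8 and 44.1 with AA and 126, 119 and 120 with PGE2 (-1.52 ± 0.06, adjusted p = 5.27e-18). The desmosome genes Dsg3 and Pkp1 differed by -1.16 and -0.49 and the serpin Serpinb5 by -0.91. Of 14 tested stomach genes (19 listed) 8 were lower, 0 higher and 6 not called (median -0.80), with 6 of the 8 weaker with AA and 2 called against vehicle with PGE2 alone. The stomach claudin Cldn18 was at 1.86, 1.46 and 1.48 CPM with vehicle, 4.90, 6.77 and 6.62 with AA and 15.6, 16.9 and 17.9 with PGE2 (-1.46 ± 0.13, adjusted p = 1.3e-10). Anxa10 differed by -0.85, Sox21 by -0.71 and the trefoil peptide gene Tff1 by -2.13. Tff1 fell short of the rule for the largest differences (mean log2 CPM of at least 1, no overlap), so its size is uncertain. Of 16 tested claudin and tight junction genes (17 listed) 9 were lower, 0 higher and 7 not called (median -0.25), with -0.47 for Tjp1 and -0.45 for Cldn2; 7 of the 9 were weaker with AA, 1 was called against vehicle with PGE2 alone and 1 with AA alone. Of the 11 epithelial markers 5 were lower and 6 not called (median -0.08), the largest being Krt19 at -0.47.

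Both compounds lowered 2873 of the 14850 tested genes. Of these, 1063 were lowered less by AA (class weaker with AA), 17 further, and the others were not called between AA and PGE2. Of 21 crypt base columnar stem cell genes, all tested, 13 were higher with AA, 2 lower and 6 not called (median 0.45; -0.63 and -1.04 against vehicle). Both compounds lowered 14 of the 21. Olfm4, a secreted glycoprotein of stem cells, was at 82.3, 85.2 and 95.7 CPM with vehicle, 27.6, 25.7 and 25.9 with AA and 6.18, 4.90 and 6.94 with PGE2. The groups did not overlap, and AA exceeded PGE2 4.34-fold (2.12 ± 0.17, adjusted p = 2.77e-08). Lgr5, the R-spondin receptor that defines these cells, was at 26.4, 27.4 and 26.2 CPM with vehicle, 7.67, 5.80 and 7.27 with AA and 4.57, 3.34 and 3.51 with PGE2 (0.84 ± 0.19, adjusted p = 0.00136). Smoc2, a matricellular protein, differed by 1.40, the RNA-binding protein gene Msi1 by 1.86 and the water channel gene Aqp4 by 2.08. Of the 2 members lower with AA, Prom1 ran as follows: 192, 184 and 204 CPM with vehicle, 190, 186 and 189 with AA and 364, 346 and 355 with PGE2, a rise called with PGE2 alone (-0.91 ± 0.04, adjusted p = 3.37e-16); the other was Rnf43, at -0.20. Wnt targets were divided, with 3 higher, 5 lower and 9 not called of 17 tested (20 listed; median -0.14). Axin2, a feedback inhibitor of Wnt signalling, lay 0.45 higher with AA, while Ccnd1 and Cd44 lay 0.52 and 0.37 lower.

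Above the same floor on expression, AA excesses of this kind included metabolic and defence genes. Cps1, which makes carbamoyl phosphate for citrulline synthesis, was at 1181, 1178 and 1203 CPM with vehicle, 531, 526 and 527 with AA and 83.3, 82.5 and 82.9 with PGE2 (2.67 ± 0.07, adjusted p = 4.36e-23). Otc, the next enzyme of that route, differed by 1.88 and Oat, which supplies ornithine, by 1.41. Of 18 tested arginine, citrulline and nitric oxide genes (20 listed) 7 were higher, 3 lower and 8 not called (median 0.08). Dmbt1, a secreted scavenger receptor that binds bacteria, was at 289, 288 and 296 CPM with vehicle, 163, 172 and 177 with AA and 21.5, 21.8 and 22.0 with PGE2, a 7.84-fold difference (2.97 ± 0.11, adjusted p = 1.69e-12). Pigr, the receptor that carries antibodies to the lumen, differed by 1.87 ± 0.06. The kinase gene Mylk3 differed by 3.01 ± 0.26 at 3.39 to 3.67 CPM with AA and 0.313 to 0.585 with PGE2. The creatine transporter Slc16a12 differed by 2.71 ± 0.29, Moxd1 by 2.66 ± 0.22 and the serotonin transporter Slc6a4 by 2.64 ± 0.15.

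Xenobiotic metabolism had the most genes higher with AA of any list, 21 of 28 tested, with 3 lower and 4 not called (median 0.67; 0.22 with AA and -0.41 with PGE2 against vehicle). Beside its 6 opposite members, 7 were called against vehicle with PGE2 alone and 6 with AA alone. The carboxylesterase Ces2a was at 273, 276 and 280 CPM with vehicle, 158, 160 and 152 with AA and 37.0, 39.9 and 37.2 with PGE2 (2.04 ± 0.06, adjusted p = 5.88e-22). Ces2c rose with AA alone, to 127, 123 and 124 CPM, and stood at 82.5, 80.0 and 84.0 with PGE2 and 78.9, 84.2 and 81.3 with vehicle. Cyp3a25 was lowered by PGE2 alone: 45.6, 48.7 and 42.1 CPM with vehicle, 44.3, 46.7 and 45.2 with AA and 13.3, 13.9 and 12.4 with PGE2 (1.79 ± 0.10, adjusted p = 7.25e-14). Of 25 tested enterocyte brush border and transport genes (26 listed) 13 were higher with AA, 6 lower and 6 not called (median 0.31); the peptidase Dpp4 lay 0.79 higher, the keratin Krt20 0.85 lower and the protocadherin Cdhr2 0.58 lower.

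In 1041 genes PGE2 alone was called against vehicle, 458 of them higher and 583 lower with AA than with PGE2. In 246 of the 1041 the 3 groups of libraries did not overlap, though with 3 libraries per group some can fall so with no AA change. A missing AA call does not by itself show that AA left a gene unmoved. The potassium channel gene Kcnj2 was at 3.43, 3.15 and 2.66 CPM with vehicle, 3.04, 2.63 and 3.09 with AA and 12.3, 15.2 and 11.9 with PGE2. The AA and vehicle libraries overlapped and all PGE2 libraries lay above them (-2.15 ± 0.14, adjusted p = 3.27e-13). Tcea3, an elongation factor gene, rose with PGE2 in the same way (-1.88 ± 0.18), as did Bcas1 and the antisense gene Grin1os (-1.29 and -1.24). No source used here says whether the counting used strand, so reads of Grin1os and of the gene opposite cannot be told apart. In the other direction, Ces1f, a carboxylesterase, was at 27.0, 26.5 and 26.6 CPM with vehicle, 30.4, 23.6 and 27.8 with AA and 5.64, 5.42 and 7.78 with PGE2 (2.11 ± 0.14, adjusted p = 1.89e-11). The glucuronosyltransferases Ugt2b5 and Ugt2b36 differed by 1.94 and 1.92, the steroid dehydrogenase gene Akr1c14 by 1.93 and Vwce by 2.10. Reads of the Ces, Ugt2b, Scd and Hspa families, as of the Cyp2c family, can be divided among near copies. Arg2, the mitochondrial arginase, was at 30.6, 33.8 and 33.5 CPM with vehicle, 32.2, 27.3 and 28.8 with AA and 9.45, 8.97 and 9.20 with PGE2 (1.67 ± 0.10, adjusted p = 2.23e-14). Among the 147 genes called with AA alone, further members were Fcgrt (0.80), Adh6a (0.79), Cst6 (0.66) and Ggt1 (0.63) among those raised and Arl3 (-0.91) among those lowered.

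Both compounds changed 959 genes at least 2-fold from vehicle in the same direction, of which 543 differed between AA and PGE2 and 416 were not called. Among those not called, the protease gene Plat, the tissue plasminogen activator, was at 6.07, 5.92 and 6.41 CPM with vehicle, 46.0, 46.8 and 49.5 with AA and 42.6, 39.1 and 42.5 with PGE2, a difference of 0.19 (95% interval 0.03 to 0.35). For the other 4 raised genes taken by the same rule the differences were 0.30 (-0.12 to 0.72) for the endocytic receptor Lrp2, -0.44 (-0.81 to -0.06) for Ttc16, -0.27 (-0.54 to -0.00) for Ly6d and -0.10 (-0.35 to 0.16) for Col18a1. Among the lowered genes they were 0.45 (0.05 to 0.85) for Dpysl5, 0.62 (-0.03 to 1.26) for the peptide gene Adm2, -0.17 (-0.70 to 0.37) for Plekhd1, 0.46 (-0.04 to 0.96) for Ripor2 and -0.14 (-0.69 to 0.40) for Epb42. These intervals do not show equal responses; those of Adm2, Ripor2 and Dpysl5 reach up to 1.26, 0.96 and 0.85.

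Genes that make, move and sense prostaglandins are those in which the compounds meet. Of 14 tested (23 listed) 4 were higher with AA, 4 lower and 6 not called (median 0.14). Ptgs2, the inducible cyclooxygenase that acts on AA, was at 3.29, 4.15 and 2.89 CPM with vehicle, 21.9, 26.1 and 22.9 with AA and 40.7, 34.4 and 35.5 with PGE2. It rose with both and further with PGE2 (-0.65 ± 0.08, adjusted p = 4.17e-07). Slco2a1, the importer that clears prostaglandins, was at 1.57, 1.77 and 1.56 CPM with vehicle, 4.07, 3.31 and 3.52 with AA and 10.6, 10.5 and 10.9 with PGE2 (-1.55 ± 0.14, adjusted p = 7.34e-10), and Abcc4, an exporter, differed by -0.30 ± 0.05. Hpgd, which inactivates PGE2, fell with both and less with AA, at 15.3, 15.5 and 15.9 CPM with vehicle, 11.1, 10.3 and 11.2 with AA and 6.02, 8.45 and 8.70 with PGE2 (0.51 ± 0.16, adjusted p = 0.0227). Cbr1, a carbonyl reductase that acts on PGE2, lay 0.52 higher with AA. The receptor gene Ptger4 rose with both, to 26.5, 26.5 and 24.0 CPM with AA and 27.8, 23.8 and 29.9 with PGE2, and was not called between them (-0.09, 95% interval -0.26 to 0.08). The other EP receptor genes were under the filter on low counts and were not tested.

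In the parallel routes of AA the called genes were cytochromes and the epoxide hydrolase gene Ephx1, all higher with AA. Of 14 tested lipoxygenase and epoxygenase genes (20 listed) 7 were higher with AA, 0 lower and 7 not called (median 0.21). Against vehicle the medians were 0.01 with AA and -0.18 with PGE2. The lipoxygenase genes Alox5 and Aloxe3 were not called (-1.22 and -0.55). The epoxygenase Cyp2c55 was at 322, 325 and 346 CPM with vehicle, 369, 346 and 343 with AA and 162, 175 and 162 with PGE2 (1.08 ± 0.05, adjusted p = 7.41e-17). Cyp2j6 and Cyp4f14 were likewise lowered with PGE2 alone, by 0.69 and 0.59 relative to AA. Among 15 tested genes of AA release, activation and return to phospholipids (18 listed) 3 were higher, 4 lower and 8 not called (median -0.06). The acyltransferases Mboat1 and Lpcat4 rose with both and lay 0.56 and 0.26 lower with AA, the synthetase Acsl5 lay 0.31 lower, and Agpat3 fell with both and lay 0.46 higher. Of 15 tested apolipoprotein and chylomicron genes (17 listed) 5 were higher, 2 lower and 8 not called (median 0.02): Fabp2, the intestinal fatty acid binding protein, differed by 0.58 and Dgat1, which completes triglycerides, by 0.32, while Apoa1 differed by -0.84.

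The other lists are given by their counts, beside the background of 27.7% of genes called. Proliferation genes were mostly not called: of 24, 2 were higher, 2 lower and 20 not called (median -0.01), and the cycling marker Mki67 was at 873, 863 and 848 CPM with AA and 878, 876 and 858 with PGE2 (-0.02, 95% interval -0.13 to 0.10). Intestinal identity transcription factors were divided, with 6 higher, 7 lower and 9 not called of 22 (median 0.01), the vitamin D receptor gene Vdr at 1.40 and the xenobiotic receptor gene Nr1i2 at 0.65. Inducible defence genes numbered 4 higher, 4 lower and 6 not called of 14 tested (22 listed; median -0.03), with Lypd8 0.96 higher. Chemokine and cytokine genes numbered 3 higher, 8 lower and 5 not called of 16 tested (29 listed; median -0.40), with the lymphocyte attractants Ccl25 and Ccl28 at 1.05 and 0.85 and the cytokine Il18 at -0.77. Interferon response genes numbered 1 higher, 4 lower and 8 not called of 13 tested (25 listed; median -0.18), with Oas1a at -0.70 and Irf7 at -0.66. Antigen presentation genes numbered 3 higher, 3 lower and 7 not called of 13 tested (17 listed; median -0.02), with H2-T3 at 1.90, B2m at 0.41 and Tapbp at -0.40.

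Stress and metabolic lists made up the rest. NRF2 and glutathione genes numbered 11 higher, 2 lower and 15 not called of 28 (median 0.07), with the transferases Gstm3, Gstm1 and Gsta3 at 1.80, 1.42 and 1.09, each of which can share reads with near copies. ATF4, serine and one-carbon genes, of which both compounds lowered 18, numbered 11 higher, 3 lower and 11 not called of 25 tested (26 listed; median 0.16; -0.47 and -0.65 against vehicle), with Stc2 at 1.03, Atf5 at 0.63 and Nupr1 at -0.79. Unfolded protein response genes numbered 3 higher, 1 lower and 13 not called of 17 (median 0.02), and heat shock genes 3 higher, 4 lower and 4 not called of 11 (median -0.03), with Hspe1 at 0.41. Glycolysis and hypoxia genes numbered 3 higher, 9 lower and 12 not called of 24 (median -0.04). Among them were the hexokinase gene Hk1 at -0.93, the glucose transporter gene Slc2a1 at -0.44 and the pyruvate dehydrogenase kinase gene Pdk1 at 1.01. Of 10 tested mitochondrially encoded genes (13 listed; median -0.09) edgeR called 0, with 0 at an unadjusted p below 0.05, and DESeq2 and limma voom called 0.

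**Figure D4:**
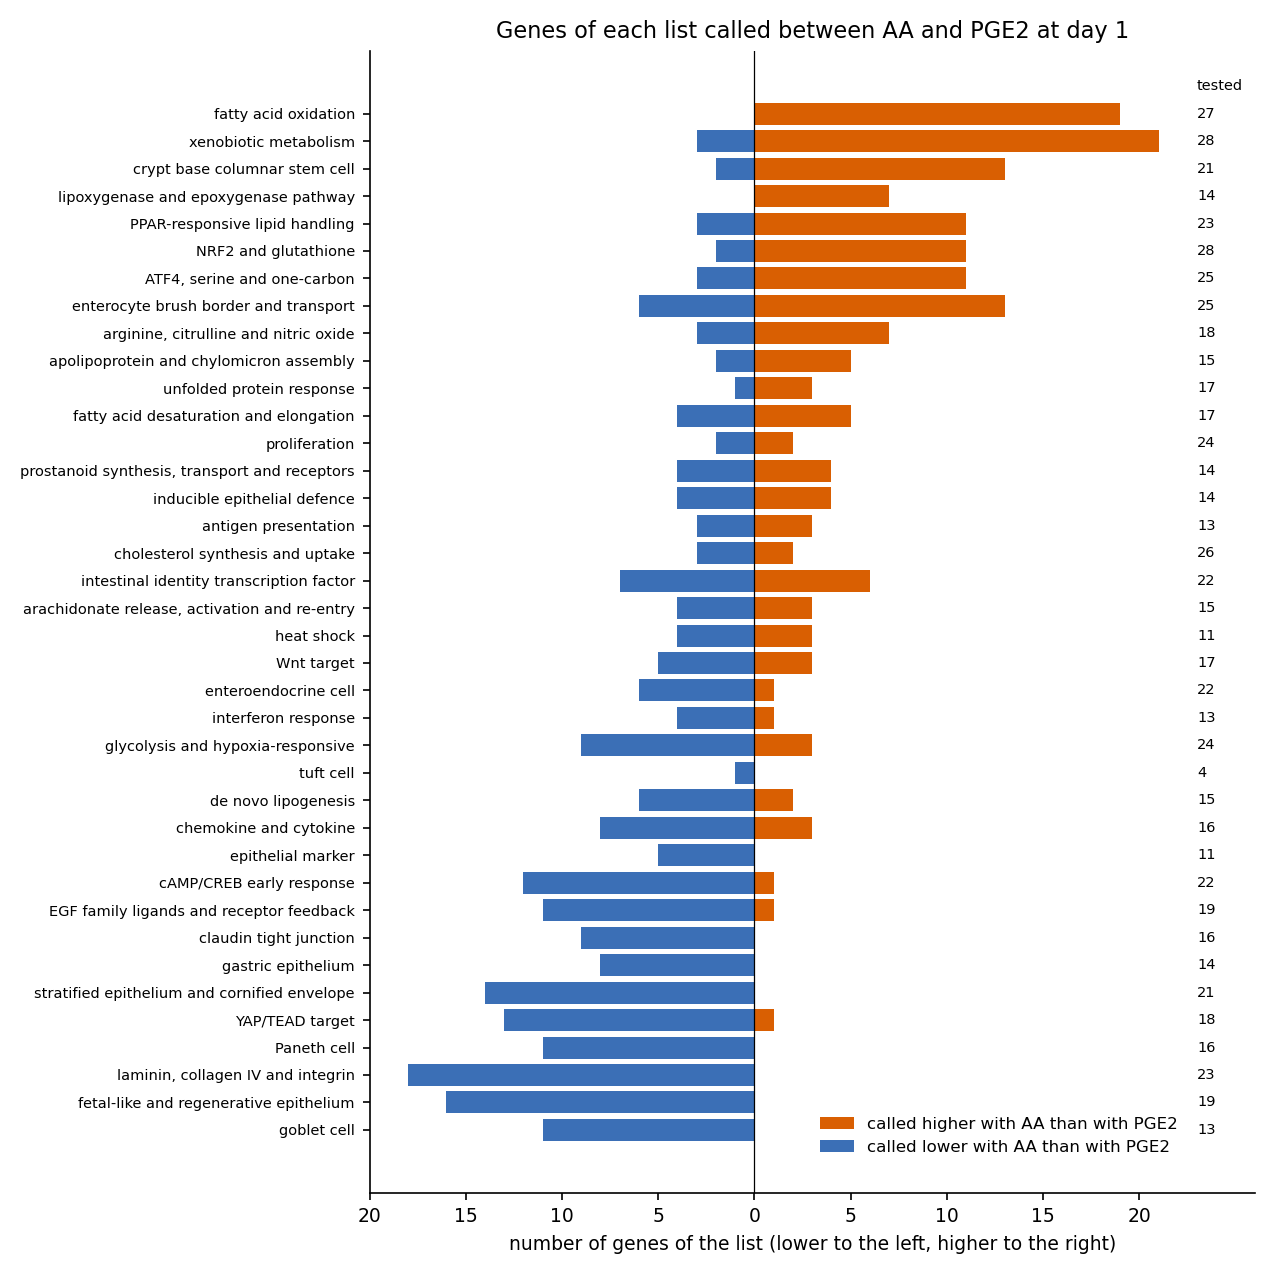
Number of genes in each list called higher (right, orange) or lower (left, blue) with AA than with PGE2 at day 1, with the number tested at the right edge. Fatty acid oxidation (19 higher, 0 lower) stands at the top and the goblet cell list (0 higher, 11 lower) at the bottom.

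By day 3 the comparison of AA with PGE2 had 5711 called genes (38.5%). Of the 4119 genes called at day 1, 2648 were called in the same direction at day 3, which is 64.3% of the day 1 calls and 46.4% of the day 3 calls. Another 123 were called in the opposite direction and 1348 were not called. Of the 44 opposite genes 33 kept the direction of their difference, 5 were turned (Rbp2, Mme, Enpep, Cyp2c29 and Defa24) and 6 were not called (Reg3g, Hnf4g, Sult1b1, Abcb1a, Fmo4 and Pip4k2b). Fabp1 differed by 1.49 ± 0.08 at day 3 against 2.74 at day 1, and the difference between the days was itself called (-1.25, adjusted p = 6.3e-07). Atoh1 differed by -1.08 ± 0.13 and Spdef by -1.17 ± 0.10 at day 3, each near its day 1 value. Of the 41 genes moved further by AA, 18 kept their direction, 6 turned and 17 were not called. Scd2 was in the last group (-0.08 at day 3; difference between the days 0.63, adjusted p = 0.000104), while Srebf1 (-0.23) and Cpt1a (0.36) stayed called in the same direction. In the weaker class 1963 of 2679 kept their direction, among them Mucl3 (-3.19), Il33 (-2.13) and Olfm4 (1.92).

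**Figure D5:**
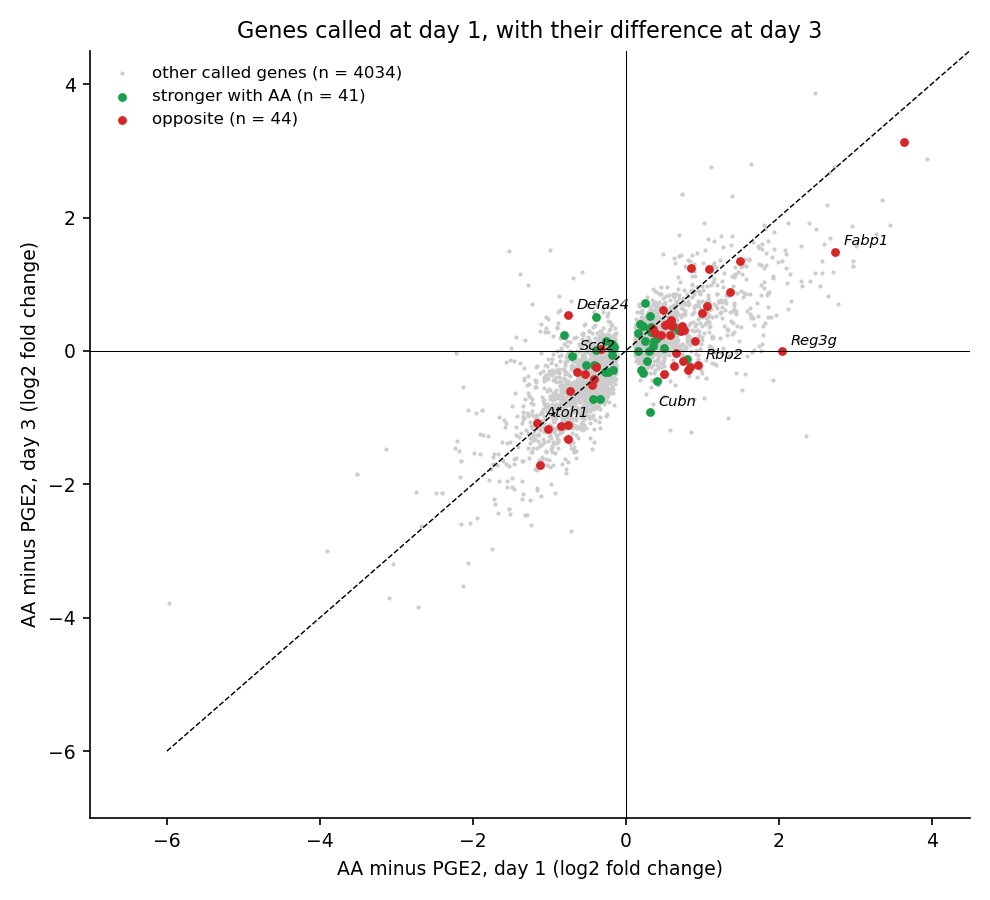
Log2 difference between AA and PGE2 at day 1 (horizontal) and day 3 (vertical) for the 4119 genes called at day 1, with opposite genes in red and genes moved further by AA in green; the dashed line marks equal differences. Fabp1 lies at 2.74 and 1.49, Reg3g falls to 0 at day 3, and Defa24, Rbp2 and Cubn change sign.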

How the data were processed

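Intestinal organoids were profiled by bulk RNA-seq, with libraries from Trizol RNA made with the NEBNext Ultra II directional kit, per the labels' protocols. The authors deposited raw counts per gene. Cutadapt, STAR, DESeq2, limma 3.46 and the build GRCh38.p6 are named, with no roles, per the submitters' processing notes. The identifiers themselves are mouse Ensembl genes. No source used here gives the counting program or its strand setting. Of 55385 identifiers 55144 had a name (99.6%); a symbol with several identifiers stays with the most abundant one. There were 0 columns without a sample.

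Counts of the 18 libraries of days 1 and 3 (6 groups of 3) were fitted with edgeR 4.0.16 (R 4.3.3): filterByExpr, TMM normalization, a robust quasi-likelihood fit with 12 residual degrees of freedom and glmQLFTest, with Benjamini-Hochberg adjustment over 14850 genes and a threshold of 0.05. Log2 differences are edgeR's, with standard errors from the test statistic and 95% intervals. CPM are counts scaled by the TMM-adjusted library size. Library totals were 10324861 to 14602531 at day 1, and their counting error limits low genes most. The chi-square per degree of freedom between replicates was 1.23 to 6.52, above counting noise for every pair. Alternatives were DESeq2 1.42.0, limma 3.58.1 (voom), other scalings and filters, fewer libraries, a replicate block and each day 1 library left out. The pipeline was tested on simulated data.

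Members, the 42 gene lists and the tests were chosen with earlier results of these data known. Named genes are up to 8 per direction with the largest difference (mean log2 CPM of at least 1, no overlap), up to 8 per direction of the opposite class, up to 5 per response direction of each other class, up to 5 per direction changed at least 2-fold by both and not called, up to 4 per list by p, and a panel of 26. Of the 44 opposite genes 43 are given; a few genes that these rules take are not reported here. Other genes named were chosen after their values were seen.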

Additional observations from a re-analysis of the deposited data

Results flagged for a closer look

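The difference between AA and PGE2 itself differed between day 1 and day 3 in 1473 genes (edgeR, interaction of treatment and day, adjusted p below 0.05). Of these, 818 were called at day 1, and 123 were called on both days in opposite directions. Each of the 12 named genes below is one of the 123, and its change is the log2 difference at day 3 minus that at day 1. The day 3 libraries were handled as a separate time point, and the part of library differences between the days was not tested.

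Of the 12 genes, 8 stood higher with AA at day 1 and lower at day 3, some of them enterocyte genes; other enterocyte genes, among them Fabp1, Sis and Mttp, stayed higher with AA. Rbp2, the retinol carrier, went from 0.94 to -0.22 (change -1.16), the peptidases Mme from 0.84 to -0.24 (-1.08) and Enpep from 0.82 to -0.28 (-1.10). Fabp2, the intestinal fatty acid binding protein, went from 0.58 to -0.45 (-1.04), Cubn, the receptor for the vitamin B12 carrier, from 0.32 to -0.92 (-1.24) and the cytochrome Cyp2c29 from 0.50 to -0.35 (-0.86). The day 1 call of Cubn was lost in 5 alternative settings, in each of which 1 library was left out. Hpgd, which inactivates PGE2, went from 0.51 to -0.67 (-1.18) and Ccdc141 from 0.42 to -0.45 (-0.86).

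The other 4 went from lower to higher with AA, while Atoh1, Spdef, Agr2, Spink4 and Fut2 stayed lower. The Paneth cell defensins Defa24 and Defa30 went from -0.75 to 0.54 (change 1.29) and from -1.05 to 0.50 (1.55), and the granin Chgb of enteroendocrine cells from -0.52 to 0.69 (1.21). The glucose transporter gene Slc2a1 went from -0.44 to 0.27 (0.71).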

How the results depend on the processing

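The number of genes called between AA and PGE2 was 3335 to 4265 when each day 1 library was left out in turn, 3476 with DESeq2, 4107 with limma voom, 4969 with the day 1 libraries only and 5713 when only the 6 libraries compared were fitted, against 4119. Genes higher with AA numbered 2570 with library totals alone and 2739 with only the 6 libraries, against 1671. The class moved further by AA held 69 genes with the day 1 libraries only, against 41. The replicate numbers did not pair the libraries (correlations of their deviations -0.035 to 0.032 between numbers), and a fit with the replicate number as a block called 4092 genes (1679 higher, 2413 lower), with 45 opposite, 2673 weaker, 42 stronger, 1030 PGE2 alone, 140 AA alone and 162 neither, 465 of at least 2-fold, 6136 for AA and 8266 for PGE2 against vehicle, and 2643 recurring at day 3. With 1 library left out, the lowest and highest counts were 1305 and 1764 higher, 1895 and 2501 lower, 427 and 480 of at least 2-fold, 5388 and 6111 for AA against vehicle, 7637 and 8294 for PGE2 against vehicle, 32 and 41 opposite, 2142 and 2573 weaker, 26 and 43 stronger, 772 and 1217 PGE2 alone, 106 and 149 AA alone, 98 and 255 neither, and 2270 and 2752 recurring. For the stronger class the low values came without PGE2 library 1 (27) or 2 (26); for the neither class without AA library 1 (102), 2 (98) or 3 (101) or PGE2 library 2 (106), and the high value without vehicle library 3 (255). The cause was not tested.

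Of 3911 values of named called genes under alternatives, 3846 stayed called in the same direction, 65 were no longer called and 0 were reversed; those lost in 5 or more settings were Kif5c, Acaca, Fgf15, Vldlr, Angptl4, Ppara and Cubn. Among genes not called, Mki67 turned positive with library totals alone (0.0513), without the filter on low counts (0.0078), with a filter at 1 CPM (0.0025) and without the ribosomal RNA-like and mitochondrial genes (0.0049). With 1 library left out, it ranged from -0.026 to 0.0085, Epb42 from -0.45 to 0.17 and Plekhd1 from -0.52 to 0.054. Depth limits genes near 1 CPM most.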
